A study of Sus scrofa with 27 samples.

Results

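The genes of MHC class II antigen presentation were followed in pig lungs during ex vivo lung perfusion (EVLP). The 10 genes were the transactivator CIITA, the presenting chains SLA-DRA, SLA-DRB1, SLA-DQA1 and SLA-DQB1, the invariant chain CD74, the peptide-loading chains SLA-DMA and SLA-DMB, and the costimulatory ligands CD80 and CD86. SLA is the swine leukocyte antigen complex, the MHC of the pig. Of these 10 genes, 8 were found by gene name among the 31908 genes of the deposited count table. CD74 and SLA-DQA1 are carried there without a gene name. They were matched by Ensembl identifier and are given beside the 8. No gene was dropped for low counts, since the lowest value, that of CD86 in 1 PD library, was 157 counts.

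The study asked how removal of waste from the perfusate affects lungs kept on EVLP for 12h. RNA was sequenced from lung biopsies of 9 Large-White pigs taken at 0h, which followed cold ischemia and preceded perfusion, at 6h and at 12h, giving 27 libraries. In the Gold Standard group (GS, 5 pigs numbered 9, 17, 44, 55 and 77) part of the Steen perfusion solution was exchanged at intervals, whereas in the Pediatric Dialysis group (PD, 4 pigs numbered 2, 3, 4 and 5) a pediatric hemodialysis membrane was placed on the circuit. All lungs came from non-heart-beating donors, and the perfusate of both groups contained methylprednisolone (a glucocorticoid), cefuroxime (an antibiotic) and heparin. The isolated lung has no blood supply of new leukocytes and the Toronto type of circuit carries a leukocyte filter. The PD lungs also served in an earlier study of the same laboratory at 6h, and the GS lungs were a separate series.

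MHC class II molecules are pairs of an alpha and a beta chain that hold peptides from ingested proteins and show them to CD4 T cells. Dendritic cells, B cells and macrophages carry them, and in the lung alveolar type 2 cells do so as well. Their genes share an upstream element with an X box and a Y box, bound by the RFX complex and by NF-Y, and transcription starts once CIITA, which does not bind DNA itself, joins these factors; interferon gamma induces CIITA. The invariant chain guards the groove until the DM heterodimer exchanges its remnant for peptide, and CD80 and CD86 then supply the second signal to the T cell through CD28.

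In Sscrofa11.1, the class II genes lie together on chromosome 7. SLA-DRA (ENSSSCG00000001453) spans 24825053 to 24835160 on the plus strand and SLA-DRB1 (ENSSSCG00000001455) spans 24881775 to 24914053 on the minus strand. SLA-DQB1 (ENSSSCG00000001457, 24943107 to 24977297, minus strand) overlaps the model of SLA-DQA1 (ENSSSCG00000001456, 24951495 to 24995637, plus strand). SLA-DMB (ENSSSCG00000001469, 25117685 to 25125847) and SLA-DMA (ENSSSCG00000001470, 25133214 to 25138348) are both on the minus strand. CIITA (ENSSSCG00000007901) is on chromosome 3 at 32172214 to 32230780 and CD74 (ENSSSCG00000033262) on chromosome 2 at 151402212 to 151433844, both on the minus strand. On chromosome 13 lie CD80 (ENSSSCG00000011899, 140693382 to 140728980, plus strand) and CD86 (ENSSSCG00000011877, 138427525 to 138504310, minus strand). The strand setting used in counting is not given in the sources used here, so reads of SLA-DQA1 and SLA-DQB1 within their overlap may not be told apart. The SLA chains also differ between alleles, and the part of allelic mismatch to the reference in their levels was not tested.

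Letters like those of the shared element can be read in the promoters of 6 of the 10 genes, and binding to them was not tested. In the 250 bases upstream of the RefSeq gene start (Sscrofa11.1), X-like letters (a G, any 2 bases, AC, any 4 bases and a G) were followed on the same strand by ATTGG, the Y box, with 32 to 35 bases from the first letter of one to the first letter of the other. Both strands were searched. The windows are shown 5′ to 3′ on the strand of the gene because they hold letters like those of the shared element, with the X-like letters and the Y box in capitals:
SLA-DRA: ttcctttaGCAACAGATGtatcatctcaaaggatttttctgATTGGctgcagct
SLA-DRB1: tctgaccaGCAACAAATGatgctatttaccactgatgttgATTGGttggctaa
SLA-DQA1: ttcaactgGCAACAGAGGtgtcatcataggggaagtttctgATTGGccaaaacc
SLA-DQB1: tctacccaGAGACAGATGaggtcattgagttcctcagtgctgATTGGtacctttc
SLA-DMA: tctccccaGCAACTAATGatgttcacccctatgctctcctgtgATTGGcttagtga
SLA-DMB: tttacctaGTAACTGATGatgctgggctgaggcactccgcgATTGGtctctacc

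These windows lie at chr7:24824956-24825009 (SLA-DRA), chr7:24914069-24914121 (SLA-DRB1), chr7:24953374-24953427 (SLA-DQA1), chr7:24977314-24977368 (SLA-DQB1), chr7:25137980-25138035 (SLA-DMA) and chr7:25125127-25125180 (SLA-DMB). The start of the X-like letters lay between −73 (SLA-DRA) and −122 (SLA-DQB1) from the RefSeq start. The Ensembl models of SLA-DQA1, SLA-DMA and SLA-DMB begin further upstream, so that their windows fall inside those models. The letters and the spacing were chosen after these sequences had been read, and 129 of 19559 protein-coding promoters of the same length (0.66%) hold the pair. A stricter X box core (a G, any base, AAC, any base and GATG), searched alone on both strands, was present in SLA-DRA and SLA-DMB and in 84 of all promoters (0.429%). The Y box letters (CCAAT, which is ATTGG read on the other strand) were in 7 of the 10 genes, CD74 included, and in 31.9% of all promoters. In these windows, CIITA, CD80 and CD86 held neither.

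The total count per library was 26335584 to 67522703 in GS and 14650700 to 21820935 in PD. No PD library reached the depth of a GS library, so that depth and any batch of libraries cannot be told apart from the group. In the PD group, pig 2 at 12h and pig 4 at 0h stood apart: the median correlation with the other libraries of their group was 0.874 for each, against 0.919 to 0.952 for all remaining libraries. SFTPC, a surfactant gene of alveolar type 2 cells, was at 85010 CPM in the former and 74816 CPM in the latter, and at 11726 to 44047 CPM in the other PD libraries. Levels are given in CPM, the counts of a gene relative to a library size scaled by TMM. A fold change is the log2 fold change of an edgeR quasi-likelihood fit with the pig as a block, with its SE. A gene passed at a Benjamini-Hochberg adjusted p under 0.05 over all genes tested, and it was called if it also changed at least 2-fold. In bulk tissue, fewer cells of a type and less RNA per cell cannot be told apart.

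In the GS group, CIITA decreased and CD80 increased, whereas the class II chains did not pass the test with all 5 pigs. At 12h, 4 of the 7 chains (SLA-DRA, SLA-DQA1, SLA-DQB1 and CD74) passed, higher than at 0h, once GS pig 9 was left out, and 7585 of 18839 genes then passed. Of the 8 genes matched by name, 2 passed at 6h and 2 at 12h (28.5% and 38.4% of the 18594 genes tested passed), and only CD80 was called at both times (11.1% and 15.7% of genes). DESeq2 passed 2 and 3 of the 8. In the PD group, 0 of the 8 passed at 6h (edgeR, 0 at an unadjusted p under 0.05 and 0 with DESeq2), where 0.142% of 15545 genes did. At 12h, again 0 passed in PD, against 5.98% of genes, with 2 at an unadjusted p under 0.05 (CD80 and SLA-DMB) and 1 with DESeq2 (CD80). The median log2 fold change of the 8 was −0.03 at 6h and 0.07 at 12h in GS and −0.04 and 0.08 in PD, with −0.05, −0.08, −0.02 and −0.05 over all genes. Between 12h and 6h, 0 of the 8 passed in either group, as did 0% of all genes. There, 1 of the 8 had an unadjusted p under 0.05 in each group (SLA-DRA in GS and CIITA in PD), as did 882 genes in GS and 1562 in PD, and DESeq2 passed 0 of the 8.

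CIITA, the switch of class II transcription, was at 99.1, 113, 101, 96.0 and 119 CPM at 0h in GS pigs 9, 17, 44, 55 and 77. At 6h the same pigs had 109, 76.8, 57.4, 68.3 and 97.0 CPM. At 12h they had 68.8, 69.5, 68.3, 75.5 and 81.3 CPM, so that every GS pig was lower than at 0h and the values of the 2 times did not overlap. The log2 fold change was −0.41 (SE 0.14, edgeR adjusted p 0.0403) at 6h, with 4 of 5 pigs lower, and −0.57 (SE 0.14, adjusted p 0.00613) at 12h, with 5 of 5 lower. Both are under 2-fold. With each GS pig left out in turn, the 12h value lay between −0.62 and −0.53 and passed each time. At 6h it passed only without pig 9 (−0.52, adjusted p 0.0137) and not without pig 17 (−0.37, adjusted p 0.126), 44 (−0.30, adjusted p 0.182), 55 (−0.39, adjusted p 0.111) or 77 (−0.42, adjusted p 0.097). With all 27 libraries in one fit, neither time passed (−0.40 and −0.54, adjusted p 0.251 and 0.0802), and without the pig as a block the 6h value did not (−0.38, adjusted p 0.199).

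In the PD group, CIITA was lower at 6h and higher at 12h in most pigs. PD pigs 2, 3, 4 and 5 had 57.1, 55.5, 114 and 75.4 CPM at 0h. At 6h they had 26.8, 46.8, 96.1 and 49.0 CPM, lower in 4 of 4 pigs. At 12h they had 43.4, 125, 140 and 111 CPM, so that pigs 3, 4 and 5 were above their 0h value and pig 2, whose 12h library stood apart, was below it. The log2 fold changes of −0.57 at 6h (SE 0.33, edgeR adjusted p 0.601) and 0.41 at 12h (SE 0.33, adjusted p 0.48) did not pass. From 6h to 12h CIITA differed by 0.98 (SE 0.33, unadjusted p 0.0117, adjusted p 0.408), higher at 12h in 4 of 4 pigs. This difference was 1.14 (adjusted p 0.034) with both libraries that stood apart left out and 0.98 (adjusted p 0.0315) with all 27 libraries in one fit. It passed in 0 of the 4 fits that leave out a PD pig (0.82 to 1.13, lowest edgeR adjusted p 0.255), and it did not pass with DESeq2.

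**Figure D1:**
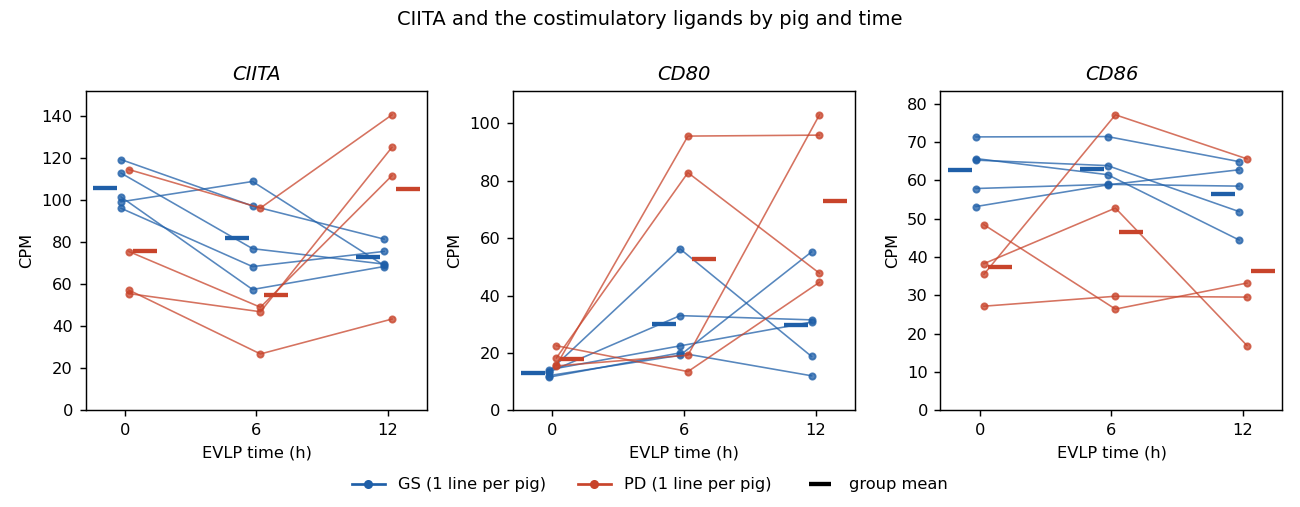
CPM of CIITA, CD80 and CD86 (vertical axes, linear from 0) against EVLP time in hours, with 1 line per pig, GS in blue and PD in red, and group means as bars. CIITA of every GS pig is lower at 12h than at 0h, while 3 of 4 PD pigs are higher, and CD80 at 12h is above 0h in all 9 pigs.

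The genes of the pathway that induces CIITA, its feedback inhibitor SOCS1 included, and the genes of the factors that bind the shared element moved in both directions in GS. Of 16 such genes, 4 rose and 4 fell at 6h and 6 rose and 4 fell at 12h. Over all 18594 genes tested, 2533 rose and 2762 fell at 6h (28.5% passed), and 3268 rose and 3868 fell at 12h (38.4% passed). SOCS1, a feedback inhibitor of JAK signaling, rose by 1.40 at 6h (SE 0.30, edgeR adjusted p 0.00491) and 1.15 at 12h (SE 0.30, adjusted p 0.0094). IRF1, which activates the interferon-responsive promoter of CIITA, rose by 1.10 (SE 0.32, adjusted p 0.0231) and 1.16 (SE 0.33, adjusted p 0.0139). NFYA, a subunit of NF-Y, fell by 1.04 (SE 0.14, adjusted p 0.000553) and 1.06 (SE 0.14, adjusted p 0.00027). RFX5, the large subunit of the RFX complex, had a log2 fold change of −0.68 (adjusted p 0.00163) and −0.66 (adjusted p 0.00112), past the adjusted p at less than 2-fold.

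In the PD group, 0 of these 16 genes passed at 6h (edgeR, 3 at an unadjusted p under 0.05, 2 with DESeq2 and 2 with edgeR without the libraries that stood apart), where IRF1 was at 1.99 and SOCS1 at 1.86 (both adjusted p 0.0827). At 12h, 2 rose and 0 fell, and 4 passed without the libraries that stood apart, where 3561 of 15651 genes passed in place of 930 of 15545. IRF1 rose by 2.86 at 12h (SE 0.41, adjusted p 0.0149) and SOCS1 by 1.61 (SE 0.38, adjusted p 0.0343). All calls of PD at 12h were lost without pig 3 or pig 5: 0 of 15603 genes passed without pig 3 and 0 of 15512 without pig 5 (edgeR). The level of IRF1 was 151 ± 19.3 CPM at 0h, 670 ± 489 at 6h and 1079 ± 222 at 12h (mean ± SD, n = 4), and in GS 137 ± 21.7, 337 ± 166 and 358 ± 189 (n = 5). The lowest PD value of IRF1 at 12h was 785 CPM and the highest GS value was 565 CPM. Its level differed by 1.61 between the groups at 12h (SE 0.44, edgeR adjusted p 0.0236), where 20.1% of all genes passed. The change of IRF1 at 12h differed between the groups by 1.66 (SE 0.52), which did not pass (edgeR adjusted p 0.677). In level at 0h, 5 of the 16 genes were higher in PD and 3 were lower, where 40.6% of all genes passed. NFYB was higher, with 1.34 (SE 0.23, edgeR adjusted p 0.000685), and RFX5 was lower, with −0.99 (SE 0.17, adjusted p 0.000735). At 6h, 5 of the 16 were higher in PD and 1 was lower, where 24.3% of all genes passed. At 12h, 3 were higher and 0 lower, where 20.1% passed. IFNG, the gene of interferon gamma, was higher at 6h, with 2.36 (SE 0.62, edgeR adjusted p 0.0175). It did not pass at 12h (0.71, edgeR adjusted p 0.526).

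Among the presenting chains, SLA-DRA, the invariant partner of the DR beta chains, ranged from 1148 to 1640 CPM at 0h in GS, from 1171 to 1589 at 6h and from 1238 to 2409 at 12h. Its log2 fold change in GS was −0.04 at 6h and 0.31 at 12h (SE 0.14, unadjusted p 0.0423, edgeR adjusted p 0.0907), with 4 of 5 pigs higher at 12h. It passed with DESeq2 (0.37, adjusted p 0.0422) and without pig 9 (0.48, edgeR adjusted p 0.016). With a GS pig left out, the 12h value lay between 0.19 and 0.48, with edgeR adjusted p of up to 0.357. SLA-DQA1, the alpha chain of DQ, was at 651, 610, 547, 580 and 722 CPM at 0h in GS pigs 9, 17, 44, 55 and 77, and at 506, 689, 1407, 1059 and 1203 CPM at 12h. Pigs 44, 55 and 77 were thus above every 0h value, pig 17 little changed and pig 9 lower. The log2 fold change of SLA-DQA1 at 12h was 0.51 (SE 0.19, edgeR adjusted p 0.0526), just outside the threshold, and DESeq2 passed it with 0.57 (adjusted p 0.0223). Without pig 9 it was 0.80 (edgeR adjusted p 0.00377). Over the 5 fits that leave out a GS pig it ranged from 0.31 to 0.80, with adjusted p of up to 0.249.

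The beta chains varied widely between pigs. SLA-DRB1 in GS was at 146 to 306 CPM at 0h and 97.3 to 484 CPM at 12h, with pig 9 lowest and pig 44 highest at both times, and its log2 fold change was −0.10 at 6h and 0.07 at 12h (95% interval −0.23 to 0.37). SLA-DQB1 had −0.02 at 6h and 0.14 at 12h (95% interval −0.18 to 0.46) in GS, and 0.39 at 12h without pig 9 (edgeR adjusted p 0.0362). With a GS pig left out, its 12h value lay between 0.015 and 0.39, with edgeR adjusted p of up to 0.961. In PD the 4 presenting chains had log2 fold changes between −0.25 (SLA-DQB1) and 0.38 (SLA-DQA1) at 6h and between −0.06 (SLA-DRB1) and 0.18 (SLA-DRA) at 12h, with SE of 0.30 to 0.39 and edgeR adjusted p of 0.731 or more.

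CD74, the invariant chain, ranged from 2235 to 4499 CPM at 0h and from 2056 to 6788 CPM at 12h in GS, with a log2 fold change of 0.26 at 12h (SE 0.16, edgeR adjusted p 0.219), and of 0.51 without GS pig 9 (adjusted p 0.0119). With a GS pig left out, the 12h value lay between 0.12 and 0.51, with edgeR adjusted p of up to 0.635. In PD, CD74 was at 2121, 1787, 3268 and 3056 CPM at 0h in pigs 2, 3, 4 and 5. At 12h these pigs had 11084, 1473, 1172 and 2791 CPM. Pig 2 at 12h was thus far above all other libraries of both groups, and the remaining 3 PD pigs were below their 0h value. Its log2 fold change at 12h in PD was 0.25 (SE 0.70, adjusted p 0.86), and −0.70 (adjusted p 0.213) without pig 2. Over the 4 fits that leave out a PD pig it ranged from −0.70 to 0.92.

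The DM chains act as one heterodimer, and neither passed in PD. SLA-DMB in PD pigs 2, 3, 4 and 5 was at 285, 337, 497 and 327 CPM at 0h. At 6h these pigs had 251, 249, 189 and 209 CPM, all lower than at 0h. At 12h they had 344, 132, 144 and 173 CPM, so that 3 of 4 pigs were lower and pig 2 was higher. The log2 fold change of SLA-DMB was −0.71 at 6h (SE 0.38, edgeR adjusted p 0.582) and −0.96 at 12h (SE 0.39, adjusted p 0.157). Without pig 2 it was −1.39 at 12h (adjusted p 0.0178), and with all 27 libraries in one fit −0.95 (adjusted p 0.0208). Without both libraries that stood apart the 12h change also passed (adjusted p 0.028). Over the 4 fits that leave out a PD pig, the 12h value ranged from −1.39 to −0.61, with edgeR adjusted p of up to 0.51. DESeq2 did not pass SLA-DMB at 12h. SLA-DMA in PD was −0.05 at 6h and 0.25 at 12h (SE 0.37, adjusted p 0.728). In GS, SLA-DMB had −0.18 and −0.24 (adjusted p 0.419 and 0.255) and SLA-DMA 0.00 and 0.07.

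**Figure D2:**
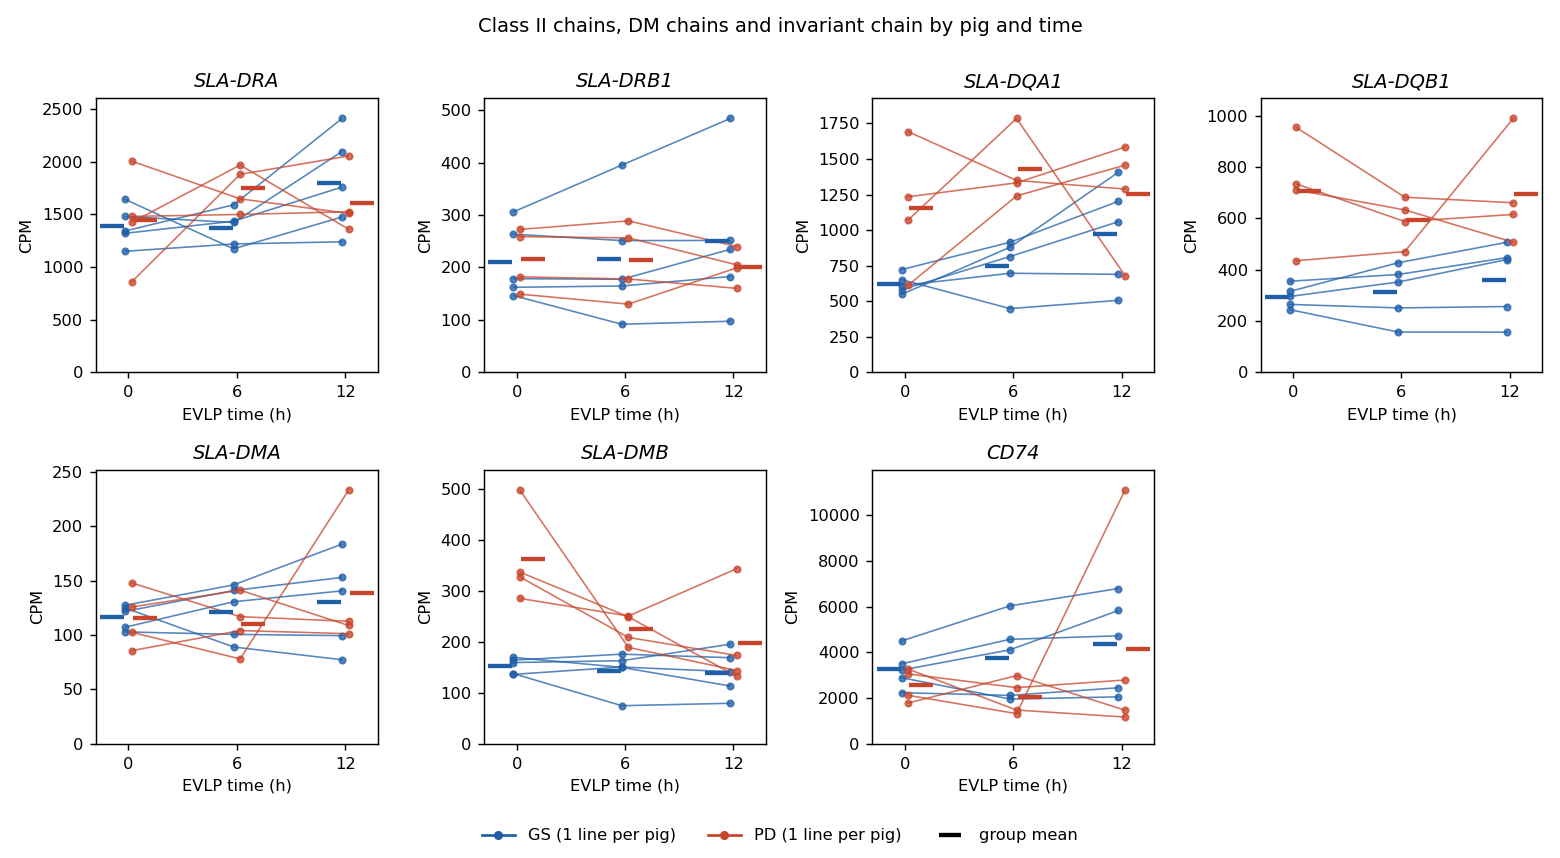
CPM of the presenting chains, the DM chains and CD74 (vertical axes, linear from 0) against EVLP time in hours, with 1 line per pig, GS in blue and PD in red, and group means as bars. SLA-DQB1 and SLA-DMB of all 4 PD pigs lie above all 5 GS pigs at 0h, where 40.6% of all genes passed in level. PD pig 2 at 12h stands out for CD74 with 11084 CPM and for SLA-DMA with 233 CPM.

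Further genes of class II processing and turnover, such as lysosomal proteases, were also followed. In GS, 28.5% of all genes passed at 6h and 38.4% at 12h. Of the 12 listed genes in the table, 0 passed at 6h in GS (edgeR, 2 at an unadjusted p under 0.05 and 1 with DESeq2), and 5 rose and 2 fell at 12h. Of these, CTSL, the gene for the lysosomal protease cathepsin L, was the only one called, with 1.36 at 12h (SE 0.47, adjusted p 0.0366). Its level was 42.3 ± 30.6 CPM at 0h and 114 ± 79.6 CPM at 12h (mean ± SD, n = 5), and the ranges overlapped. In PD, 0 of the 12 passed at either time (edgeR, 0 and 1 at an unadjusted p under 0.05, 0 with DESeq2). The median log2 fold change of the 12 at 12h was 0.33 in GS and −0.07 in PD, against −0.08 and −0.05 over all genes.

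CD80, a ligand of CD28 and CTLA4 that antigen-presenting cells induce on activation, was at 13.4, 14.2, 13.3, 12.1 and 11.6 CPM at 0h in GS pigs 9, 17, 44, 55 and 77. At 6h they had 56.3, 22.5, 33.0, 19.2 and 20.1 CPM, and at 12h 18.8, 30.8, 31.6, 55.2 and 12.1 CPM. Every GS pig was above its own 0h value at both times, with pig 9 highest at 6h and pig 55 highest at 12h. The log2 fold change was 1.14 at 6h (SE 0.34, edgeR adjusted p 0.0231) and 1.07 at 12h (SE 0.34, adjusted p 0.0239). These calls were close to the threshold. They were lost at 6h without GS pig 9 (0.89, adjusted p 0.0504) or pig 44 (1.11, adjusted p 0.0882), and at 12h without pig 17 (1.07, adjusted p 0.0727), pig 44 (1.04, adjusted p 0.0869) or pig 55 (0.73, adjusted p 0.0866).

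In PD pigs 2, 3, 4 and 5, CD80 was at 18.3, 22.5, 15.7 and 15.5 CPM at 0h. The values at 6h were 82.8, 13.5, 95.6 and 19.2 CPM, so that pigs 2 and 4 were high and pig 3 was below its 0h value. The values at 12h were 47.8, 44.7, 95.9 and 103 CPM, above all PD values at 0h. The log2 fold change was 1.24 at 6h (SE 0.60, edgeR adjusted p 0.556) and 1.91 at 12h (SE 0.59, unadjusted p 0.0073, adjusted p 0.0747), the largest of the 10 genes in PD at both times. With a PD pig left out, the 6h value lay between 0.74 and 1.87 and did not pass (lowest edgeR adjusted p 0.488). At 12h CD80 passed and was called without the pig as a block (2.01, adjusted p 0.0369), with DESeq2 (1.95, adjusted p 0.00673), with all 27 libraries in one fit (1.92, adjusted p 0.0123), without pig 2 (2.00, adjusted p 0.0356) and without both libraries that stood apart (1.92, adjusted p 0.0289). It did not pass without pig 3 (2.32, adjusted p 0.199), pig 4 (1.78, adjusted p 0.164) or pig 5 (1.56, adjusted p 0.394), nor without the filter on low counts (1.94, adjusted p 0.0513).

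CD86, the constitutively expressed relative of CD80, did not pass in any comparison with 0h. In GS it was at 53.2 to 71.4 CPM at 0h, 58.8 to 71.5 at 6h and 44.5 to 64.9 at 12h, with log2 fold changes of −0.01 (95% interval −0.24 to 0.22) and −0.18 (−0.42 to 0.05). In PD it was at 27.2 to 48.5 CPM at 0h, 26.4 to 77.1 at 6h and 16.9 to 65.6 at 12h, lowest in pig 2 at 12h. Its log2 fold changes in PD were 0.21 and −0.17 with an SE of 0.41.

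**Figure D3:**
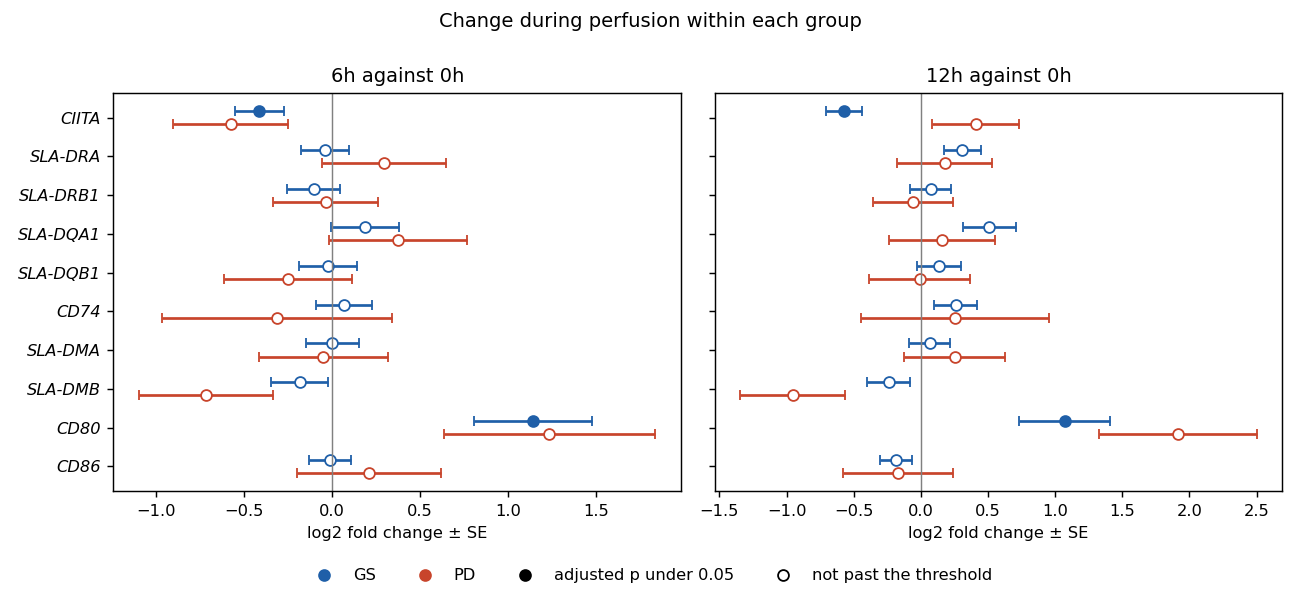
Log2 fold change ± SE of the 10 genes (horizontal axes) at 6h and 12h against 0h from the edgeR fits of GS (blue, 5 pigs) and PD (red, 4 pigs), with filled points at an adjusted p under 0.05. Only CIITA and CD80 have filled points, in GS, and the bars of PD are wider.

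Among 12 other costimulatory genes, 0 rose and 2 fell in GS at 6h, where 28.5% of all genes passed. At 12h, where 38.4% of all genes passed, 1 of the 12 rose and 2 fell. The only one of them called was TNFSF4, the ligand of the T cell receptor OX40, with a log2 fold change of −1.05 at 12h (SE 0.22, edgeR adjusted p 0.0032). In PD, 0 passed at 6h (edgeR, 1 at an unadjusted p under 0.05 and 1 with DESeq2), and CD83, a marker of mature dendritic cells, and CD40, the receptor through which T cells activate antigen-presenting cells, rose at 12h. CD83 rose by 2.38 (SE 0.36, adjusted p 0.0149), from 56.7 ± 19.6 to 295 ± 93.2 CPM (mean ± SD, n = 4). CD40 rose by 1.56 (SE 0.36, adjusted p 0.033), from 40.6 ± 9.32 to 130 ± 62.5 CPM. In GS, CD83 was at 74.8 ± 41.7 CPM at 0h and 186 ± 129 CPM at 12h (n = 5), a change of 0.87 that did not pass (SE 0.54, adjusted p 0.221). In level at 12h, CD40 and CD274 (PD-L1, a ligand that restrains T cells) were higher in PD than in GS, with 1.69 (SE 0.34, edgeR adjusted p 0.00597) and 2.08 (SE 0.46, adjusted p 0.0096). CD40LG, the ligand of CD40 on T cells, was lower, with −2.99 (SE 0.65, adjusted p 0.00892). The other 9 did not pass, where 20.1% of all genes did. CD40LG was already lower in PD at 0h, with −1.60 (SE 0.37, adjusted p 0.00466). The changes at 12h of CD40, CD83 and CD40LG differed between the groups by 1.28, 1.49 and −0.96, which did not pass (edgeR adjusted p 0.677, 0.826 and 0.881). Without the libraries that stood apart, 6 of the 12 passed in PD at 12h, where 3561 of 15651 genes did, and without PD pig 3 or pig 5 none passed, as for all genes.

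The change in PD was then compared with the change in GS, as the difference of the log2 fold changes (interaction of group and time, edgeR, 17884 genes). At 6h and at 12h, 0 of the 8 genes passed, as did 0% of all genes at each time; 0 and 1 of the 8 had an unadjusted p under 0.05, against 1046 and 1069 genes, and DESeq2 passed 0 of the 8 at both times. The 1 gene was CIITA at 12h, with a difference of 0.95 (SE 0.31, unadjusted p 0.0064, edgeR adjusted p 0.688). The log2 ratios of CIITA at 12h to 0h were −0.40, 1.17, 0.30 and 0.56 in PD pigs 2, 3, 4 and 5 and −0.53, −0.70, −0.57, −0.35 and −0.55 in GS pigs 9, 17, 44, 55 and 77. PD pig 2 thus lay within the GS values, and the other 3 PD pigs lay above them. The exact two-sided Wilcoxon test on these ratios gave p 0.0317 (adjusted p 0.823), where 0.0159 is the smallest p that 4 against 5 pigs can give.

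With PD pig 2 left out, the interaction of CIITA at 12h was 1.23 (edgeR adjusted p 0.0496, 153 of 18568 genes passing), and with only the libraries that stood apart left out 1.12 (adjusted p 0.231). Over all 9 fits that leave out a pig it ranged from 0.73 to 1.23. SLA-DMB differed by −0.54 at 6h (SE 0.37) and −0.74 at 12h (SE 0.37, unadjusted p 0.0618, edgeR adjusted p 0.843), and CD80 by 0.07 (95% interval −1.28 to 1.42) and 0.81 (−0.52 to 2.13). With a pig left out, SLA-DMB lay between −0.73 and −0.28 at 6h and between −1.15 and −0.42 at 12h. CD80 then lay between −0.46 and 0.72 at 6h, on both sides of no difference, and between 0.48 and 1.27 at 12h. The Wilcoxon tests passed 0 of the 8 at 6h and 0 at 12h after adjustment. At an unadjusted exact p under 0.05 there were 0 and 1 of the 8, and 1059 and 675 of all genes. No gene of the 17884 passed after adjustment at either time. The smallest exact p that these group sizes allow is 0.0159, and too few genes reached it for any to pass. The 0 of 8 is therefore no evidence that the ratios were alike in the groups. The ratios of the PD and GS pigs overlapped for all 10 genes at both times, while 3.12% of genes at 6h and 2.09% at 12h did not overlap.

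Levels were also compared between the groups at each time. At 0h, before any dialysis, 4 of the 8 genes passed, and 40.6% of 16477 genes did, so that the share of these genes is near that of all genes. SLA-DQB1 and SLA-DMB were also past 2-fold, as were 29.1% of genes. SLA-DQB1 was at 435, 711, 955 and 735 CPM in PD pigs 2, 3, 4 and 5 and at 244, 265, 315, 296 and 355 CPM in GS pigs 9, 17, 44, 55 and 77. Every PD pig was above every GS pig, with a log2 difference of 1.31 (SE 0.24, edgeR adjusted p 0.00118). SLA-DMB was at 285 to 497 CPM in PD and at 136 to 170 CPM in GS, again without overlap, with 1.28 (SE 0.21, edgeR adjusted p 0.000528). How many of all genes show no overlap in level between the groups was not counted.

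The differences of SLA-DQB1 and SLA-DMB at 0h were 1.33 and 1.32 after all libraries were thinned to the lowest total count, and both remained called with each pig left out. SLA-DQA1 was higher in PD by 0.93 at 0h (SE 0.27, edgeR adjusted p 0.0153) and CD80 by 0.52 (SE 0.20, adjusted p 0.0487), while CD86 was lower, with −0.70 (SE 0.20, adjusted p 0.0154). Each of these 3 did not pass in some fits with a pig left out. SLA-DQA1 was lost without PD pig 3 (0.68, adjusted p 0.0599) and CD86 without PD pig 5 (−0.57, adjusted p 0.0532). CD80 was lost with any pig but PD pig 4 left out, with adjusted p of up to 0.152. The level of CIITA differed by −0.44 (SE 0.23, adjusted p 0.154), and by −0.71 (adjusted p 0.00626) without PD pig 4. Over the 9 fits that leave out a pig it ranged from −0.71 to −0.32, with edgeR adjusted p of up to 0.327. The partner chains SLA-DRA, SLA-DRB1 and SLA-DMA differed by 0.10, 0.07 and 0.02, with 95% intervals of −0.40 to 0.60, −0.46 to 0.61 and −0.35 to 0.40. The chains past the adjusted p at 0h were thus SLA-DQA1, SLA-DQB1 and SLA-DMB, 3 of 7, a share close to that of all genes.

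At 6h, 1 of the 8 passed, SLA-DQB1 with 0.91 (SE 0.30, edgeR adjusted p 0.0402), and SLA-DQA1 passed with 0.92 (SE 0.27, adjusted p 0.0259), where 24.3% of 16201 genes passed. No gene of the 10 was called, as 21.1% of genes were. Both were lost with single pigs left out: SLA-DQA1 without GS pig 55 or PD pig 2 (adjusted p 0.0544 and 0.0594), and SLA-DQB1 without GS pig 9, 17, 55 or 77 or PD pig 3, 4 or 5 (adjusted p of up to 0.0852). SLA-DQB1 at 6h was 471 to 683 CPM in PD and 157 to 427 CPM in GS. The level of CIITA at 6h differed by −0.59 (SE 0.35, edgeR adjusted p 0.229), and by −1.01 (adjusted p 0.0482) without PD pig 4. At 12h, 0 of the 8 passed, against 20.1% of 16431 genes, with 2 at an unadjusted p under 0.05 and 1 with DESeq2. These were CD80 with 1.31 (SE 0.44, adjusted p 0.0556, DESeq2 adjusted p 0.0213) and SLA-DQB1 with 0.97 (SE 0.38, adjusted p 0.089). The level of CIITA at 12h differed by 0.53 (SE 0.33, adjusted p 0.268), and by 0.79 (adjusted p 0.0166) without PD pig 2. Over the 9 fits that leave out a pig it ranged from 0.37 to 0.79, with edgeR adjusted p of up to 0.515.

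**Figure D4:**
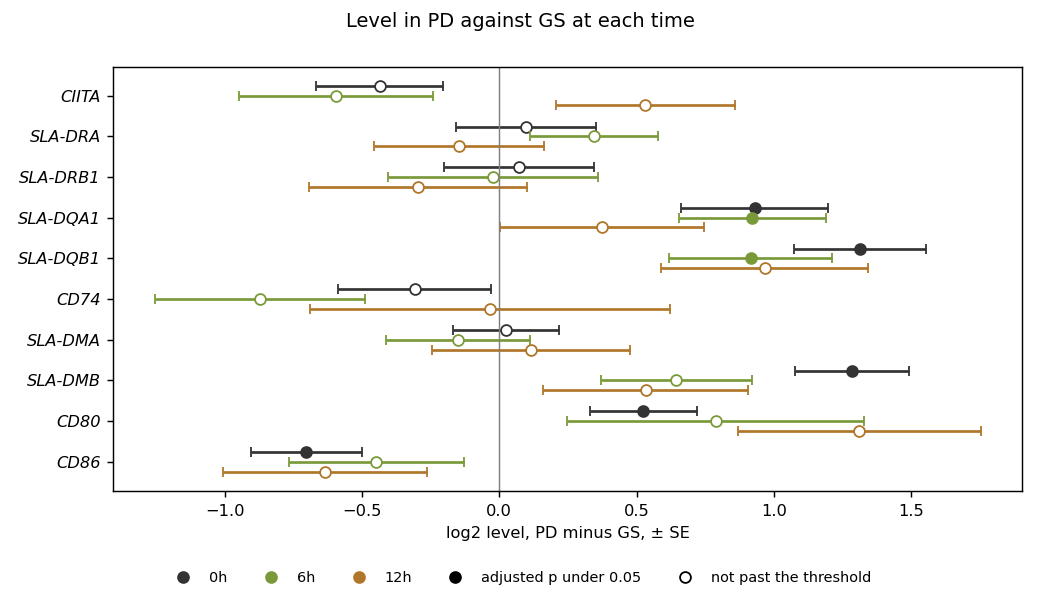
Difference of the log2 level, PD minus GS, ± SE (horizontal axis) for the 10 genes at 0h, 6h and 12h from edgeR fits of the 9 libraries of each time, with filled points at an adjusted p under 0.05. At 0h SLA-DQB1 (1.31), SLA-DMB (1.28), SLA-DQA1 (0.93) and CD80 (0.52) are filled on the right and CD86 (−0.70) on the left, and no point is filled at 12h.

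MHC class I presentation, which serves CD8 T cells and is driven by NLRC5, a relative of CIITA, was followed beside class II. Of its 13 genes in the table, 0 rose and 6 fell in GS at 6h and 3 rose and 6 fell at 12h, all under 2-fold. The listed class I genes SLA-1, SLA-2, SLA-3 and SLA-6 were not found by name, so these counts do not cover them. In the same fits 28.5% of all genes passed at 6h and 38.4% at 12h. NLRC5 itself had a log2 fold change of −0.62 at 6h (SE 0.14, edgeR adjusted p 0.00739) and −0.55 at 12h (SE 0.14, adjusted p 0.0093), a decrease beside that of CIITA. In PD, 0 of 12 tested passed at either time (edgeR, 2 and 2 at an unadjusted p under 0.05, 0 and 1 with DESeq2). In level at 0h, 5 of the 13 were higher in PD, 1 was lower and 7 did not pass, where 40.6% of all genes passed. At 6h, 3 were higher and 1 lower (24.3% of all genes passed), and at 12h 4 were higher and 1 lower (20.1%). B2M, the light chain of class I, was higher in PD by 2.15 at 0h (SE 0.35, edgeR adjusted p 0.000541). The difference was 1.57 at 6h (SE 0.32, adjusted p 0.00519), and it was 1.78 at 12h (SE 0.35, adjusted p 0.00577).

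Markers of the cells that carry class II were followed beside these results, and their part in them was not tested. For every marker list below, the share of all genes that passed in GS was 28.5% at 6h and 38.4% at 12h. In PD it was 0.142% at 6h and 5.98% at 12h, and for levels at 0h it was 40.6%. Of 7 B cell markers, 4 fell in GS at 6h and 5 at 12h, and 0 rose. MS4A1 (CD20) fell by 1.29 and 1.62 in GS (edgeR adjusted p 0.00313 and 0.000635) and by 2.39 in PD at 12h (SE 0.44, adjusted p 0.0189), the 1 B cell marker that passed in PD, where 5 passed without the libraries that stood apart (3561 of 15651 genes did) and 0 without PD pig 3 or pig 5 (edgeR, 0 genes in all). The summed level of the 7 was 82.0 to 248 CPM at 0h and 40.4 to 155 CPM at 12h in GS, and 64.2 to 143 and 35.2 to 65.1 CPM in PD. At 0h the B cell markers did not move together between the groups: MS4A1 was higher in PD by 1.36 (adjusted p 0.00581), whereas CD79A was lower, with −1.97 (adjusted p 0.00508).

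Of 9 dendritic cell markers in the table, 1 rose and 4 fell in GS at each time, and 2 fell in PD at 12h. CD1E, a lipid-handling molecule of dendritic cells, had log2 fold changes of −2.06 in GS at 6h (edgeR adjusted p 0.00496), −1.77 in GS at 12h (adjusted p 0.00688) and −2.21 in PD at 12h (adjusted p 0.0418). Its level was low, with means of 3.46, 0.72 and 1.05 CPM at 0h, 6h and 12h in GS and 8.62, 5.42 and 1.99 CPM in PD. The list did not move as one: the median log2 fold change of the 9 at 6h and 12h was 0.06 and −0.24 in GS and 0.31 and 0.18 in PD. The summed level of the 9 was 171 to 190 CPM at 0h and 136 to 295 CPM at 12h in GS, and 156 to 229 and 169 to 371 CPM in PD. Of 10 macrophage and monocyte markers tested, CD14 alone passed in GS, with 1.28 at 6h and 1.60 at 12h (adjusted p 0.00159 and 0.000292), and 0 passed in PD (edgeR, 0 and 1 at an unadjusted p under 0.05, 0 and 1 with DESeq2). LYZ, the other listed marker, was at 0 counts in all libraries.

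In level at 0h, the macrophage markers CD68 and CSF1R were lower in PD, with −1.89 (SE 0.36, edgeR adjusted p 0.00146) and −1.63 (SE 0.29, adjusted p 0.00106). C1QB, a complement chain made by macrophages, was also lower (−1.24, SE 0.31, adjusted p 0.0071), and the other 7 of 10 tested did not pass, CD163 (0.17) and MRC1 (0.62) among them. The median of the list was −0.31, and its summed level was 3064 to 4242 CPM in PD and 4494 to 8768 CPM in GS. SFTPC was higher in PD by 3.56 (SE 0.40, edgeR adjusted p 4.93e-05). The sum of the 8 alveolar type 2 markers, most of it SFTPC in PD, was 27300 to 79139 CPM in PD and 8016 to 10720 CPM in GS. The list did not move as one: SFTPC and SFTPD (1.36, SE 0.25, edgeR adjusted p 0.00113) were higher, SFTPB was lower with −1.35 (SE 0.38, adjusted p 0.0132), and 5 did not pass, with a median of 0.42. These differences stand beside the higher SLA-DQB1, SLA-DQA1 and SLA-DMB of PD at 0h. In the alveolar type 2 list, 1 gene fell in GS at 6h, 1 rose and 1 fell at 12h, and 0 passed in PD (edgeR, 0 and 1 at an unadjusted p under 0.05, 0 and 1 with DESeq2).

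Of 6 T cell markers tested, 5 fell at 6h and 6 at 12h in GS, and CD3D fell in PD at 12h by 1.58 (SE 0.32, edgeR adjusted p 0.024), a call lost without PD pig 3 or pig 5. Over all genes, 2762 of 18594 fell at 6h and 3868 at 12h in GS, and 429 of 15545 fell in PD at 12h. The summed level of T cell markers was 188 to 295 CPM at 0h and 85.6 to 181 CPM at 12h in GS, and 126 to 220 and 65.4 to 103 CPM in PD. Of 7 endothelial markers, 2 fell in GS at 6h and 3 fell and 1 rose at 12h. Of 4 neutrophil markers tested, 0 passed in GS at 6h (edgeR, 0 at an unadjusted p under 0.05 and 0 with DESeq2) and 1 fell at 12h. In PD, where MPO was at 0 counts, 0 of the endothelial and neutrophil markers passed (edgeR). At an unadjusted p under 0.05 there were 0 endothelial and 2 neutrophil markers at 6h and 1 of each at 12h, and DESeq2 passed 0 of each at 6h and 1 of each at 12h.

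In GS, all correlations among the 7 chain genes were positive, from 0.38 (SLA-DRA with SLA-DRB1) to 0.93, and those of CIITA with the chains were negative. Over the 27 libraries, with the mean of each group removed from the log2 CPM, the Pearson correlation of CIITA with the 7 chain genes was between −0.27 (CD74 and SLA-DMB) and −0.01 (SLA-DQB1). In GS alone it was between −0.45 (SLA-DQA1) and −0.0022 (SLA-DMB), and in PD alone between −0.38 (SLA-DMB) and 0.19 (SLA-DQB1). It is a description over libraries that share pigs, depth and the libraries that stood apart. SLA-DRA and SLA-DQA1, the alpha chains, correlated with 0.82 in GS and 0.83 in PD. CD74 correlated with SLA-DMA and SLA-DQB1 with 0.93 and 0.91 in GS (15 libraries) and 0.78 and 0.65 in PD (12 libraries). In PD, CD74 had a negative correlation with SLA-DRA (−0.55), SLA-DQA1 (−0.69) and CD86 (−0.85), whereas in GS these were 0.74, 0.80 and 0.20.

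Among 13091 further genes with a symbol, the patterns most like CIITA on the same scale were those of MTO1 (r 0.80), ETV7 (0.79), ABCF3 (0.78), KNOP1 (0.77) and MBD1 (0.77). The patterns most like CD74 were those of GUK1 (0.95), SHISA4 (0.94), SEPTIN9 (0.93), RPS6KB2 (0.93) and CSRP1 (0.93). The 10 genes followed here were left out before this ranking. The 12h library of PD pig 2, with CD74 at 11084 CPM, is among the 27, and its weight in these correlations was not tested.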

How the data were processed

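RNA of 27 lung biopsies was sequenced from polyadenylated, stranded libraries on one kind of NextSeq run. As the labels and the study's methods state, the authors trimmed reads with cutadapt (1.15), aligned them to Sscrofa11.1 (Ensembl annotation) with TopHat2 (2.0.14) and deposited raw counts per gene from featureCounts (1.6.0). The counts were used as deposited. The strand setting and the treatment of reads with several alignments are not given in the sources used here, nor which biopsies were frozen and which kept in RNAlater. Groups, pigs and times came from the labels.

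Counts were filtered with filterByExpr, scaled by TMM and tested in edgeR (4.0.16) with the robust quasi-likelihood test, separately for GS and PD with the pig as a block, for group by time over both, and for levels at each time, with Benjamini-Hochberg adjustment over all genes. SE was taken as the log2 fold change over the square root of F, and 95% intervals as 1.96 SE. Per-pig log2 ratios of CPM (prior count 0.5) were compared with the exact Wilcoxon test. DESeq2 (1.42.0), other filters, scalings and fits, thinned counts and each pig left out were alternatives. Same-numbered libraries come from 1 pig, and deviations from the group means correlated with a mean of 0.513 within GS pigs and 0.112 within PD pigs, against −0.154 and −0.123 between pigs. The edgeR and DESeq2 fits of time, of group by time and of level were checked on simulated counts with known changes. Other steps, such as the Wilcoxon tests and the promoter search, were not. Members and gene lists were chosen with earlier results of these data known, and in each list at most 4 called genes of largest change were named per comparison, and marker genes and genes set beside a member at any level. Promoters came from RefSeq. List genes that the table does not name, such as SLA-DOB, TAPBP and SLA-1, were not analysed here.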

Additional observations from a re-analysis of the deposited data

Results flagged for a closer look

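In 3 of 100 sets of member values tested for a sample far from the rest of its group, 1 sample stood apart, where chance gives about 1 in 20 sets. The log2 ratio of SLA-DQB1 at 12h in PD was 1.19 in pig 2, and the next PD pig was at −0.26. The log2 CPM of SLA-DMA at 12h in PD was 7.86 in pig 2, and the next PD pig was at 6.81. The 12h library of PD pig 2 is the one that also stood apart over all genes. The log2 CPM of SLA-DMB at 6h in GS was 6.23 in pig 9, and the next GS pig was at 7.23.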

How the results depend on the processing

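The count of the 8 genes called was 1 in GS at 6h and at 12h (CD80). It was 0 at both times with all 27 libraries in one fit, 0 at 12h without the filter on low counts (CD80 1.09, edgeR adjusted p 0.0502), and 2 at both times with no 2-fold limit. With a pig left out it ranged from 0 to 1 at both times, being 0 without GS pig 9 or 44 at 6h and without GS pig 17, 44 or 55 at 12h. In PD at 12h the count of 0 became 1 without the replicate block, with DESeq2, in one fit and without the libraries of pig 2 at 12h and pig 4 at 0h (a setting chosen after seeing the data), and ranged from 0 to 2 with a pig left out, being 2 without PD pig 2, where 3826 of 15703 genes were called in place of 930 of 15545, against 399 of 15641 without PD pig 4 and 0 genes without PD pig 3 or pig 5. Between 12h and 6h and for the interaction the count is of genes past the adjusted p, with no 2-fold limit. Between 12h and 6h in PD it became 1 (CIITA) in one fit (492 of 17884 genes) and without those libraries (680 of 15651 genes), against 0 genes in the fit reported. For the interaction at 12h it ranged from 0 to 1 with a pig left out, and was 1 (CIITA) without PD pig 2, where 153 of 18568 genes passed. For levels, 0 became 1 at 12h with DESeq2 and with thinned counts (CD80 1.33, adjusted p 0.0487), and ranged from 0 to 1 with a pig left out, being 1 at 6h without GS pig 44 or PD pig 2 (SLA-DQB1) or PD pig 4 (CIITA, lower in PD) and without GS pig 55 or PD pig 2 at 12h. Pairing by pig is by design, since each pig gave all 3 times, and the block changed none of the other counts of the 8 genes called. Nor did it change the counts between 12h and 6h or for the interaction. With no 2-fold limit, CIITA in GS at 6h passed with the block and not without it. Over all genes, without the replicate block the number called went from 2057 to 1123 in GS at 6h, from 2911 to 1896 at 12h, from 22 to 100 in PD at 6h and from 930 to 1460 at 12h. No value of the 10 genes reversed its direction past a threshold. The lower depth of PD limits its low-count genes most, and the lowest count of a member was 157.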
